A study of Mus musculus with 2 samples.

Results

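The miR-30 family was examined in small RNA libraries of *Dnmt1*-WT and *Dnmt1*-KO mice, made from jejunal tunica muscularis. Its members were taken by name as every mature product, from either arm, of miR-30a, miR-30b, miR-30c, miR-30d and miR-30e. There were 11 of them among the 1147 entries of the table, 5 from the 5p arm and 6 from the 3p arm. All 11 were above 0 in both libraries. The tissue was jejunum smooth muscle, peeled from the mucosa at 15 days of age on a C57BL/6 background. Both genotypes carried the *Myh11*-driven *Cre*-eGFP transgene. In *Dnmt1*-KO mice it deleted a floxed *Dnmt1*, which encodes the maintenance DNA methyltransferase, in cells that express *Myh11*, and other cells of the muscle layer kept the gene. Both samples are labelled with the transgene Tg(Myh11-cre,-EGFP)2Mik and with Dnmt1lox/lox. The description of the WT sample names the knockout genotype against its title and genotype field, which were followed here. The methods list males and females of each genotype and leave unstated whether their RNA was combined. Each genotype had 1 library, so the variation among animals is unknown, and every comparison is between those 2 libraries.

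A miRNA hairpin is cut into a duplex whose arms are called 5p and 3p. The arm that is kept guides silencing of mRNAs that pair with its seed, bases 2 to 8. The miR-30 family is known as an abundant family of muscle, heart and kidney, with most of its product from the 5p arm, and the 5p products are known to share a seed and thus to have overlapping targets. Known targets include connective tissue growth factor, a driver of matrix production, and the mesenchymal transcription factor Snai1. The family is made from 6 hairpins in 3 pairs.

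Of the 11 members, 7 matched the copy of the RefSeq miRNA table (GRCm38.p6) used here. Their mature sequences are shown to make plain which products share a seed and which differ by a single base, with the seed in capitals.
mmu-miR-30a-5p: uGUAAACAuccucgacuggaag
mmu-miR-30e-5p: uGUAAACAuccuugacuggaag
mmu-miR-30c-5p: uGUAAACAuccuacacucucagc
mmu-miR-30a-3p: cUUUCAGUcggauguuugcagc
mmu-miR-30e-3p: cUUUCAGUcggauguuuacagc
mmu-miR-30c-1-3p: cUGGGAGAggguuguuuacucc
mmu-miR-30c-2-3p: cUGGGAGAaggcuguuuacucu

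The 3 printed 5p products had the same seed. The printed 3p products had other seeds, 1 shared by miR-30a-3p and miR-30e-3p and 1 shared by the 3p products of both miR-30c hairpins. Counted from 1 at the 5′ end, miR-30e-5p differs from miR-30a-5p by C13U alone, and miR-30e-3p differs from miR-30a-3p by G18A alone. miR-30c-5p carries C13A, G14C, G18C, G19U and A20C relative to miR-30a-5p over the 22 bases that both have, and the first 12 bases of all 3 are identical. A read that ends before base 13 cannot be placed on 1 of them, and how such reads were assigned is not given in the sources used here. miR-30b and miR-30d, which that RefSeq copy lacks, are given by name.

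On GRCm38, Mir30a (chr1:23272269-23272339, plus strand, in no other annotated gene) lies 19361 bases before Mir30c-2 (chr1:23291701-23291784, plus strand, exonic in *Gm27028*, a lincRNA). Mir30b (chr15:68337415-68337510, minus strand, exonic in the processed transcript *Gm26621*) and Mir30d (chr15:68341208-68341289, minus strand, in exons of *Gm37296* and *Gm20732*) are 3697 bases apart. Mir30c-1 (chr4:120769534-120769622, minus strand) and Mir30e (chr4:120772606-120772697, minus strand) are 2983 bases apart, and both lie in an intron of *Nfyc*, which encodes a subunit of the transcription factor NF-Y. The 4 hairpins with a sequence in the RefSeq copy used here are shown with their mature products in capitals. The miR-30c pair explains 1 entry of the table.
Mir30a: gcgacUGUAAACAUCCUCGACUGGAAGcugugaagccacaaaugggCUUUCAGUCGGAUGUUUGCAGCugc
Mir30e: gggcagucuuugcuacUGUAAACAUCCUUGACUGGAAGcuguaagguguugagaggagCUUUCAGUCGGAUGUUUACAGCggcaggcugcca
Mir30c-1: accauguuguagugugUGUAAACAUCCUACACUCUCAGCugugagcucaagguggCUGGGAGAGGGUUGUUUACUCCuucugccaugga
Mir30c-2: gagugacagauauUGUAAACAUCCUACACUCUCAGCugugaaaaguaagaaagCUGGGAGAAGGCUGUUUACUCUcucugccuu

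Both miR-30c hairpins release the same 5p product, so the miR-30c-5p entry sums the loci on chromosomes 1 and 4. Their 3p products differ by G9A, U12C and C22U (miR-30c-1-3p first) and have an entry each, so only the 3p arm tells the loci apart.

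The deposited values were taken as reads scaled by a factor per library, with 1 unit close to 1 read. They summed to 5741906 in WT and 4754677 in KO, so the deposited scale did not equalise the library totals. The difference in totals therefore enters every ratio on that scale. Ratios are KO/WT on the deposited scale with 95% intervals that cover counting error only. Setting the library totals equal multiplied every ratio by 1.21 (0.27 on the log2 scale), and 2 further scalings multiplied it by 1.13 and 1.10 (0.17 and 0.13 on the log2 scale). In bulk tissue, fewer cells of a type and less RNA per cell cannot be told apart.

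To see what happened to the dominant arm, the 5p products were compared first. All 5 were lower in *Dnmt1*-KO. mmu-miR-30c-5p went from 69647 in WT to 26544 in KO, a ratio of 0.381 (0.376 to 0.387). It was the most abundant member in WT, at rank 17 of the table, and stood at rank 31 in KO. mmu-miR-30e-5p went from 62359 to 35182, a ratio of 0.564 (0.557 to 0.572). mmu-miR-30a-5p went from 66567 to 37773, a ratio of 0.567 (0.560 to 0.575). These 2 near-identical products, from different chromosomes, had overlapping intervals, with a ratio of ratios of 1.01 (0.988 to 1.02).

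The products of the chromosome 15 pair were the least reduced of the 5p group. mmu-miR-30b-5p, the least abundant of the 5, went from 16990 to 10216, a ratio of 0.601 (0.587 to 0.616). mmu-miR-30d-5p went from 68469 to 51610, a ratio of 0.754 (0.745 to 0.762). It kept its place near the top, at rank 18 in WT and 17 in KO, and became the most abundant member. Of the 10 pairs that can be formed from the 5 products, 9 had a ratio of ratios whose counting interval left out 1, and the widest gap was between miR-30d-5p and miR-30c-5p, at 1.98 (1.94 to 2.01). Library scaling cancels in these comparisons. Counting error does not include the scatter between animals, so they order 2 libraries and not the genotypes.

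**Figure D1:**
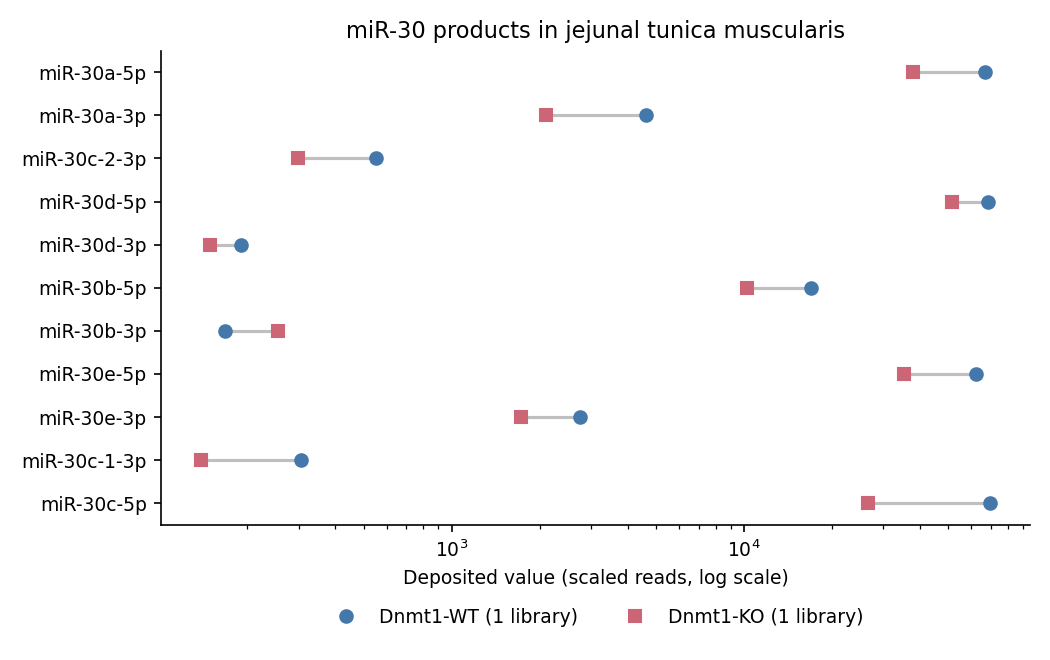
Deposited value (scaled reads, log axis) of each miR-30 product in the Dnmt1-WT library (circles) and the Dnmt1-KO library (squares), with a grey line joining them. In 10 of the 11 products the square lies to the left of the circle, and miR-30b-3p, at 167.5 in WT and 255.3 in KO, is the exception.

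The summed 5p products, here called the 5p pool, went from 284032 to 161325, a ratio of 0.568 (0.565 to 0.571). They made up 4.95% of the WT library and 3.39% of the KO library. The pool was 122706 units lower in KO, and the library total, summed over higher and lower entries, was 987229 units lower. The deposited scale leaves that difference in totals uncorrected. Without miR-30c-5p the pool had a ratio of 0.629 (0.624 to 0.633). With equal totals the ratio of the pool was 0.686, so the pool was lower in KO under both scalings.

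The 3p products were much rarer than their 5p partners, at no more than 6.95 units for each 100 of 5p. Those of miR-30a and miR-30e, the most abundant, were lower in KO. mmu-miR-30a-3p went from 4630 to 2098, a ratio of 0.453 (0.430 to 0.477), and mmu-miR-30e-3p from 2758 to 1729, a ratio of 0.627 (0.590 to 0.666). Their ratios differed by more than counting error, with a ratio of ratios of 0.723 (0.668 to 0.782), although their 5p partners were alike. mmu-miR-30c-2-3p went from 549.6 to 298.2, a ratio of 0.543 (0.470 to 0.626). mmu-miR-30c-1-3p went from 304.9 to 138.6, a ratio of 0.455 (0.369 to 0.558). The miR-30c loci were not separable by this measure, since the ratio of ratios of their 3p products was 1.19 (0.934 to 1.53).

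The 3p products of the chromosome 15 pair were the rarest members in WT, and only that of miR-30b was higher in KO. mmu-miR-30d-3p went from 190.0 to 149.6, a ratio of 0.787 (0.633 to 0.983). With equal totals its ratio became 0.951 (0.764 to 1.19), and under the further scalings 0.886 and 0.863. Each of these intervals included 1, so a difference was not detectable at this depth on those scales. mmu-miR-30b-3p went from 167.5 to 255.3, a ratio of 1.52 (1.25 to 1.86). The other scalings raise every ratio, so they could not turn its direction. miR-30b-3p was the only member above a ratio of 1. Its ratio was 1.94 times (1.45 to 2.59) that of miR-30d-3p from the neighbouring hairpin.

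**Figure D2:**
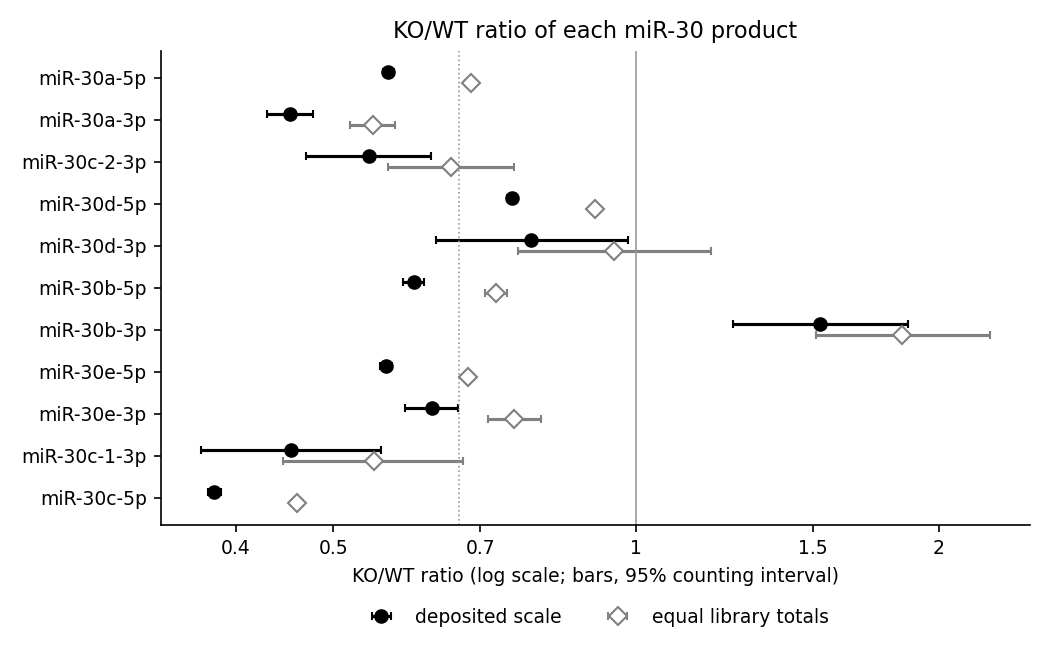
KO/WT ratio (log axis) of each miR-30 product on the deposited scale (filled circles) and with equal library totals (open diamonds). Bars are 95% counting intervals, the solid line marks a ratio of 1 and the dotted line a 1.5-fold lower value. miR-30c-5p is lowest at 0.381 and miR-30b-3p highest at 1.52.

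To set the members against the table, an entry was called when KO differed from WT by at least 1.5-fold, among the 316 entries whose WT and KO values averaged 100 or more. All 11 members met that minimum. Of these, 8 were called lower, beside 20.9% of all entries (66 of 316). They were every member but miR-30d-5p, miR-30d-3p and miR-30b-3p. Only miR-30b-3p was called higher, where 17.4% of all entries (55) were. At 2-fold, 3 members were lower (miR-30c-5p, miR-30a-3p and miR-30c-1-3p), beside 8.86% of all entries. The call depended on the scale, and the deposited scale leaves the library totals unequal. With equal totals 4 members were called lower (the same 3 and miR-30c-2-3p), beside 11.4% of entries, and 1 was called higher, beside 31% of entries (98). With miR-143-3p left out of the totals 6 members were called lower, beside 15.5% of entries, and with the median ratio set to 1 there were 7, beside 17.7%. Among entries averaging 1000 or more, 6 of the 7 members were called lower on the deposited scale, beside 22.8% of the 136 entries. A pseudocount of 10 gave 8 of 11, beside 20.6%.

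The median log2(KO/WT) of the 11 members was -0.82, against -0.03 over all 316 entries. Over the 7 members averaging 1000 or more it was again -0.82, against -0.13 over the 136 entries at that minimum, of which 80 were lower and 56 higher. Among the 46 entries that averaged 10000 or more, miR-30c-5p had the 3rd lowest ratio, after miR-143-5p at 0.259 and miR-133a-3p at 0.295. miR-30e-5p, miR-30a-5p and miR-30b-5p stood at places 8, 9 and 11 of that order, and miR-30d-5p at 19. The 5p products share a seed, and some members share a hairpin or a host transcript, so the members are not independent of each other.

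**Figure D3:**
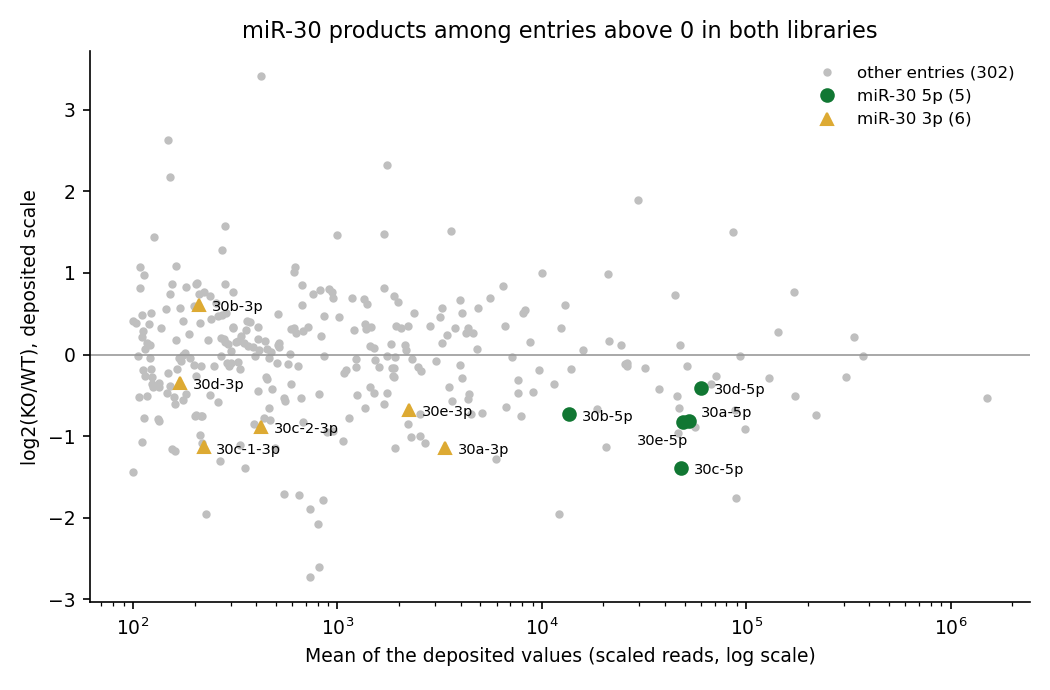
log2(KO/WT) on the deposited scale against the mean of the deposited values (scaled reads, log axis) for 313 entries that averaged 100 or more and were at 0 in neither library. Green circles are the miR-30 5p products, yellow triangles the 3p products and grey dots the other entries. The 5p products lie between -1.39 and -0.41.

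The comparison by locus pair used only products that come from 1 pair, which leaves out miR-30c-5p. The pair on chromosome 1 (miR-30a-5p, miR-30a-3p and miR-30c-2-3p) summed to 71746 in WT and 40169 in KO, a ratio of 0.560 (0.553 to 0.567). The pair on chromosome 4 (miR-30e-5p, miR-30e-3p and miR-30c-1-3p) summed to 65421 and 37050, a ratio of 0.566 (0.559 to 0.574). These pairs had overlapping intervals. The pair on chromosome 15 (both arms of miR-30b and miR-30d) summed to 85816 and 62230, a ratio of 0.725 (0.718 to 0.733), above the other pairs by more than counting error. Each sum is mostly its abundant 5p product. Within the chromosome 15 pair, miR-30b-5p at 0.601 was nearer to miR-30a-5p than to miR-30d-5p, so the products of that pair differed from each other. miR-30c-5p, which both other pairs feed, was lower than either pair.

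The make-up of the 5p pool does not depend on the scaling of the libraries. miR-30c-5p took 24.5% of the pool in WT (95% Wilson interval 24.4 to 24.7%) and 16.5% in KO (16.3 to 16.6%). miR-30d-5p took 24.1% (23.9 to 24.3%) and 32.0% (31.8 to 32.2%). The KO share minus the WT share was -8.07 percentage points for the first and 7.88 for the second, so opposite shifts of similar size. miR-30a-5p held 23.4% in both libraries, miR-30e-5p 22.0% and 21.8%, and miR-30b-5p 5.98% and 6.33%. These flat shares depend on miR-30c-5p being in the sum: without it, miR-30a-5p held 31.1% in WT and 28.0% in KO, miR-30e-5p 29.1% and 26.1%, and miR-30b-5p 7.93% and 7.58%. The chromosome 15 products together went from 30.1% (29.9 to 30.3%) to 38.3% (38.1 to 38.6%). In WT the products other than miR-30b-5p had similar shares, from 22.0% to 24.5%, and in KO they spread from 16.5% to 32.0%.

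**Figure D4:**
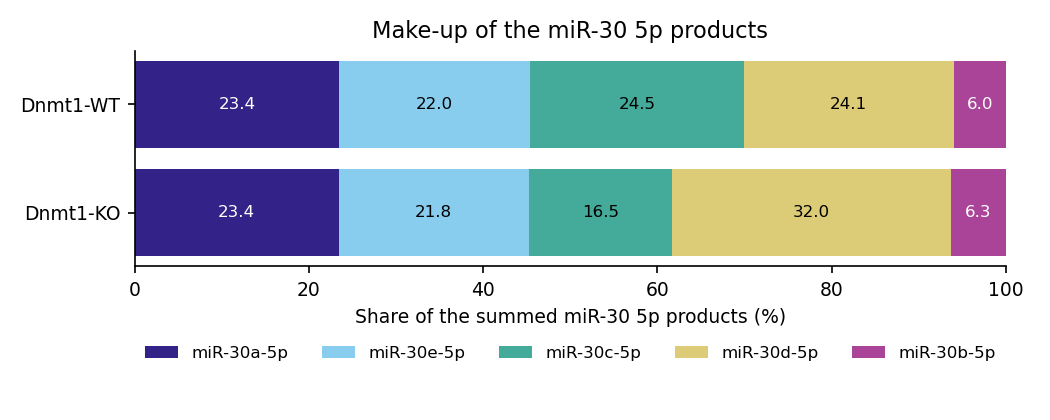
Share (%) of each product in the summed miR-30 5p products of the Dnmt1-WT and Dnmt1-KO libraries, with the share printed in each block. The miR-30c-5p block narrows from 24.5% to 16.5% and the miR-30d-5p block widens from 24.1% to 32.0%.

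The comparison by arm asked whether the arms of a hairpin moved together, which again cancels the scaling. For each 100 units of 5p, miR-30a had 6.95 of 3p in WT and 5.55 in KO, a change of 0.799 times (0.757 to 0.842). miR-30e had 4.42 and 4.91, a change of 1.11 times (1.05 to 1.18). miR-30d had 0.277 and 0.290, a change of 1.04 times (0.843 to 1.29), which counting error covers. The sign of the change thus differed between miR-30a and miR-30e, and none of these changes reached 1.5-fold.

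The arms of miR-30b differed most, and the change of miR-30c was near in size to that of miR-30a but in the other direction. miR-30b had 0.986 of 3p for each 100 of 5p in WT and 2.50 in KO, a change of 2.53 times (2.08 to 3.09). The 5p product was lower and the 3p product higher. For miR-30c, the 3p products of both hairpins summed to 854.5 in WT and 436.8 in KO, a ratio of 0.511 (0.455 to 0.574), beside 0.381 for their common 5p product, and the arm ratio changed 1.34 times (1.19 to 1.51). Among the 62 hairpins of the table with both arms at a mean of at least 100, 45.2% had an arm ratio changed by at least 1.5-fold in either direction, and of the 4 members among them (miR-30a, miR-30b, miR-30d and miR-30e) 1 was, miR-30b. The median change of the 58 other hairpins was 1.45-fold. A shift of the size seen in miR-30a, miR-30c and miR-30e was therefore common in the table. The change of miR-30b was above that median, but some of the other hairpins changed more, by up to 3.22-fold.

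**Figure D5:**
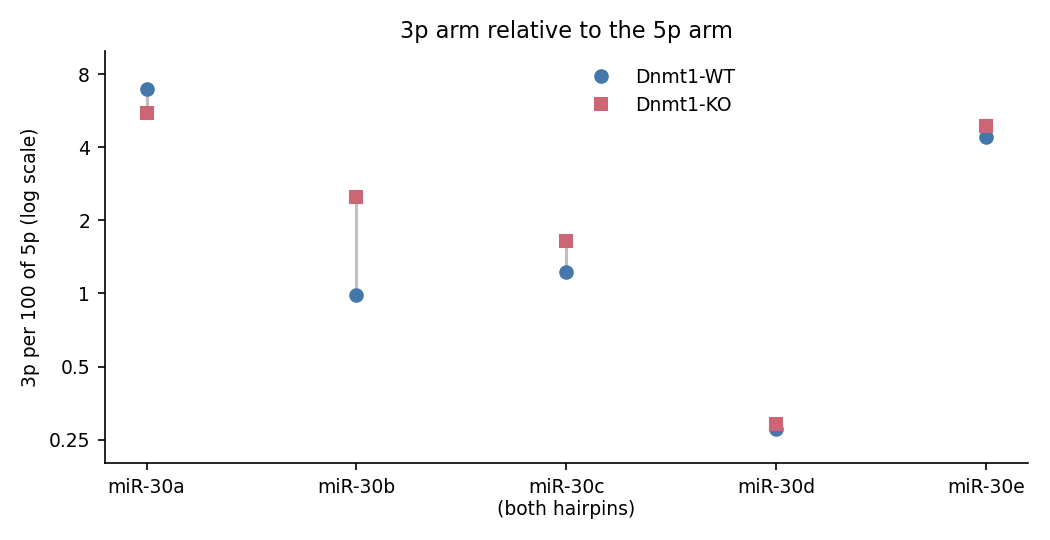
Units of 3p product for each 100 units of 5p product (log axis) for each miR-30 hairpin in the Dnmt1-WT (circles) and Dnmt1-KO (squares) libraries, with both miR-30c hairpins summed. The widest gap is that of miR-30b, from 0.986 to 2.50, and the points of miR-30d nearly coincide.

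A further mature miRNA in the RefSeq table has the same seed without being a member, mmu-miR-384-5p (chrX:105344332-105344354, minus strand).
mmu-miR-384-5p: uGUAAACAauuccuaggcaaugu
It went from 1636 in WT to 1241 in KO, a ratio of 0.758 (0.704 to 0.817), close to that of miR-30d-5p. The entry miR-30f, from the strand opposite Mir30e (chr4:120772621-120772642, plus strand), was listed at 2 in WT and 0 in KO, under the limit of 3 reads that a count of 0 allows.

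The let-7, miR-26 and miR-29 families were compared as sums of their seed-sharing products. The let-7 family (9 entries) had a ratio of 0.918 (0.915 to 0.921), but with equal totals this became 1.11, and 1.03 and 1.01 under the other scalings. Its members lay on both sides of 1, from 0.705 to 1.58. The miR-26 family (2 entries), whose hairpins sit in *Ctdsp* genes, had a ratio of 1.11 (1.11 to 1.12), with its entries on either side of 1, miR-26b-5p at 0.748 and miR-26a-5p at 1.16. The miR-29 family (3 entries), known as a regulator of collagen genes, had a ratio of 0.488 (0.460 to 0.517), with members from 0.406 to 0.498. With equal totals the summed ratio was 1.34 for miR-26 and 0.589 for miR-29. On the deposited scale the 5p pool of miR-30 at 0.568 lay between miR-29 and let-7, and its interval overlapped none of the 3 families. The miR-29 family held 0.0627% of the WT library.

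The 5 non-members nearest to the 5p pool in ratio, among 41 with a mean of at least 10000, were miR-378a-3p (0.541), miR-145a-5p (0.598), miR-125a-5p (0.530), miR-16-5p (0.624) and miR-125b-5p (0.513). Likeness over 2 libraries is a description only. miR-145a-5p, known as a smooth muscle miRNA, was present at 275275 in WT and 164499 in KO, similar in level to the whole 5p pool.

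Markers of the cell types that the tissue could hold also differed between the libraries. All 8 listed smooth muscle products were lower in KO, with ratios from 0.259 to 0.694 and a summed ratio of 0.652. All 5 leukocyte products were higher, with ratios from 1.40 to 5.01, from 1676 in WT to 4843 in KO in sum. All 3 red cell products were higher (153.4 and 460.7 in sum), as were both endothelial products (10080 and 14282). On the deposited scale, 4 of the 8 epithelial products were higher and 4 lower (14503 and 18129 in sum), but 8 were higher with equal totals (a summed ratio of 1.51) and 7 under each of the other scalings. Of the 3 neural products 1 was higher (4591 and 4547 in sum, a ratio of 0.990), and 2 were higher under each of the other scalings, with a summed ratio of 1.20 at equal totals. The counts of the other lists were the same under each scaling. No listed marker was at 0 in either library. The part of these shifts in the miR-30 values was not tested.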

How the data were processed

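Small RNA of jejunal tunica muscularis was sequenced in 1 library per genotype. According to the labels and methods, libraries were made with a TruSeq Small RNA kit and sequenced on a HiSeq instrument, and a provider aligned the reads to GRCm38/mm10. The submitters' processing notes name Bowtie. Its settings, the miRNA release and the handling of reads with several matches are not given in the sources used here. The deposited values have 1 decimal and were taken as scaled read counts. The scale was read from the values: of those from 20 to 300, 88.6% in WT (229 values) and 91.1% in KO (248) were whole multiples, within 0.06 units, of steps of 1.00 units in WT and 0.997 in KO. Other steps gave 8.73% and 8.87% (medians). The WT value of miR-30d-3p was not a whole multiple, at 189.5 implied reads, so its interval is approximate. Division by the steps gave 5725617 and 4768099 implied reads, and 3 reads are 5.24e-05% and 6.29e-05% of them. The authors' own fold change column was not used.

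Intervals of ratios are exact (Clopper-Pearson) binomial intervals of the share of implied reads from KO, those of ratios of ratios and arm ratios are log-scale intervals from 4 read numbers, and shares carry Wilson intervals (Python 3.11.15, SciPy 1.17.1). Without molecular identifiers, PCR reads are not independent molecules, so intervals cover counting error only. The interval script was tested on simulated data. With 1 library per group no test was made and no p-value is given. Positions come from GENCODE M21 and RefSeq, both on GRCm38. Named entries were the members, any entry with the 5p seed, the 5 non-members at a mean of at least 10000 nearest to the 5p pool in ratio, the let-7, miR-26 and miR-29 families, the cell type markers and miR-143-3p. The entry miR-30f was named as well. miR-143-5p and miR-133a-3p were named after their values were seen. The members, lists and alternatives were chosen with earlier results of these data known. The alternatives were 3 other scalings, other minimum means, a pseudocount of 10, a 2-fold threshold and sums without miR-30c-5p.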

Additional observations from a re-analysis of the deposited data

How the results depend on the processing

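The direction of all 11 members was the same on the deposited scale, with equal totals, with equal totals without miR-143-3p and with the median ratio set to 1 at a mean of at least 1000. Of the 33 rescaled ratios, 22 moved beyond their counting interval and 0 changed direction. For the 10 lower members this followed from the size of the factors, at most 1.21. Their highest ratio was 0.787 (miR-30d-3p), which such a factor cannot bring to 1. For miR-30b-3p the direction was fixed beforehand, since the 3 other scalings raise every ratio. The interval of miR-30d-3p included 1 under each of them. In that order of the 3 other scalings, the ratio of the 5p pool was 0.686, 0.639 and 0.622, and that of the chromosome 1 pair 0.676, 0.630 and 0.613. The chromosome 15 pair gave 0.876, 0.816 and 0.794, and the chromosome 4 pair 0.684, 0.638 and 0.620. The median log2 ratio of the members was -0.55, -0.65 and -0.69. Without miR-30c-5p the 5p pool had a ratio of 0.629, and miR-30d-5p took 31.9% of it in WT and 38.3% in KO, by construction of the smaller sum. The 8 members called at least 1.5-fold lower became 4 with equal totals and 3 at a 2-fold threshold. They became 6 and 7 under the other scalings (15.5% and 17.7% of all entries), 6 of the 7 members at a mean of at least 1000 (22.8%) and 8 with a pseudocount of 10 (20.6%). All 11 members passed the minimum of 100, so dropping it could not change their count of 8. No share of all entries was taken without that minimum. Over all 316 entries, 66 were called lower and 55 higher on the deposited scale, and 36 and 98 with equal totals. Arm ratios moved by less than their counting error with a pseudocount of 10. At this depth the 3p products of miR-30b, miR-30d and miR-30c are the least precise members. No paired analysis was possible because each genotype had 1 library.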
